A study of Mus musculus with 6 samples.

Results

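The livers described here came from mice killed after 1 month on alcohol, and their RNA was compared with that of control mice on 2 two-color arrays. An array probe was counted as measured when it was well above background for the alcohol and the control RNA on both arrays, which held for 28898 of the 41174 probes, or 70.2%, belonging to 20532 of 27670 gene symbols. Male 129/Sv mice aged 6 to 8 weeks at the start received either a liquid diet with 4% ethanol or an isocaloric diet in which maltose dextran took the place of ethanol, and both groups had first been accustomed to the control liquid diet. Liver RNA was pooled within each group, every one of its 6 mice contributing the same share, so that 1 alcohol pool and 1 control pool stood for the 12 mice. The array of replicate 1 carried alcohol RNA in Cy5 and control RNA in Cy3, and the dyes were exchanged on the array of replicate 2. The series holds 6 arrays in all, and the other 4 compare separate pools made after 2 and 4 months on the diets.

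Both arrays of 1 month carry the same RNA. The SD given below is therefore that of 2 hybridizations, it does not include the variation between mice, and no p-value can be given for alcohol at 1 month. Pools also do not show whether a change came from all 6 mice or from a few of them.

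Ethanol is oxidized in hepatocytes by alcohol dehydrogenases and by the cytochrome P450 enzyme Cyp2e1. Hepatocytes also carry nuclear receptors that read lipids and foreign compounds: CAR and PXR switch on drug-metabolizing genes such as the Cyp2b and Cyp3a genes, and PPAR-alpha switches on the Cyp4a genes and fatty acid oxidation. Many of the same enzymes differ between male and female mouse liver, a pattern set largely by the rhythm of growth hormone release.

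The largest changes at 1 month lay in the Cyp2b genes, and the stretch before the start of each of the 3 raised genes is shown because 2 of them can hardly be told apart. The sequences are the 250 bases before the transcript start in RefSeq (build GRCm38.p6), written 5′ to 3′ on the plus strand of chromosome 7, at chr7:26173159-26173408 for Cyp2b9, chr7:26061245-26061494 for Cyp2b13 and chr7:25897408-25897657 for Cyp2b10. Capitals mark the letters AGGTCA, a unit found in the binding sites of many nuclear receptors.
Cyp2b9: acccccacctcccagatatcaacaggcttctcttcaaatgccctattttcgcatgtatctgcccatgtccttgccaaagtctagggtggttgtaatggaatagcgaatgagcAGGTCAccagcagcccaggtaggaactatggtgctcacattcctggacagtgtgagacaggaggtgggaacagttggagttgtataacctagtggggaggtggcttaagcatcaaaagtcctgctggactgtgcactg
Cyp2b13: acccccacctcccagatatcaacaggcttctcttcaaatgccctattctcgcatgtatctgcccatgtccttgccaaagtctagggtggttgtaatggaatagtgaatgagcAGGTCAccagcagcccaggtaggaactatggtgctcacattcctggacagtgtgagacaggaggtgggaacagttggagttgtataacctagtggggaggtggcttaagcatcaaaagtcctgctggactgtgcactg
Cyp2b10: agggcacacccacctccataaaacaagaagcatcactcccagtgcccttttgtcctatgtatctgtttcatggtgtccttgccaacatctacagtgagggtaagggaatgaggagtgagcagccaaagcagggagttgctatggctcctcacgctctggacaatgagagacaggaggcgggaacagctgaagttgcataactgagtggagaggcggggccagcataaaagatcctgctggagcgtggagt
Cyp2b9 and Cyp2b13 differed at 2 of the 250 positions, T48C and C104T, with Cyp2b9 given first and positions counted from the 5′ end of the stretch. Cyp2b10 shared 71.0% of 262 aligned positions with either of them, gaps counted as different. AGGTCA began 138 bases before the start in both Cyp2b9 and Cyp2b13 and did not occur on either strand in the Cyp2b10 stretch. Among 32851 promoters searched over the same length and on both strands, 14.0% held these letters, so that the match only describes the sequence. Transcripts of Cyp2b genes are also alike and can bind the same array probes, and the assignment of a signal to a single Cyp2b gene is uncertain.

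On the 1-month arrays 73.3% to 75.3% of the gene spots exceeded background well in each channel. All 11 hepatocyte markers, such as Alb and Ttr, were measured, at a median signal in the 99.5th percentile of the control pool, and the 4 Y-linked genes examined (Ddx3y, Eif2s3y, Kdm5d, Uty) were measured in both pools with log2 ratios between -0.32 and 0.20 on single arrays. Acinar genes of the pancreas, a neighbor of the liver at dissection, had a summed signal in the alcohol pool that differed from control by -0.06 and -0.03 on the log2 scale on the 2 arrays. Of the measured probes 3 were saturated on at least 1 array. Probes of the most abundant transcripts could follow the dye: Apoa1, a major lipoprotein component, gave 0.26 and -1.47, and Alb gave 0.81 and -0.19. A gene was for this reason called only when both arrays agreed.

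Few probes passed that rule. At least 2-fold on each array and in the same direction, 28 probes were raised by alcohol (0.0969% of the measured probes) and 14 were lowered (0.0484%), representing 20 and 11 symbols. With 1.5-fold on each array, 85 probes were raised (0.294%) and 65 lowered (0.225%), for 67 and 55 symbols. Over all measured probes the median log2 ratio of alcohol over control was -0.0021, and the central 95% lay between -0.30 and 0.29. Within 1.2-fold stayed 93.0% of the probes. The average was above 0 for 49.3% of them, the share to set beside counts above 0 in the lists, which use that average. On both arrays 6727 probes lay above 0 and 7225 below. The log2 ratios of both arrays correlated at 0.15 (Pearson) but by rank at -0.019 (Spearman) across these probes, which are not independent replicates, and the SD of the average (0.17) was close to that of the part that followed the dye (0.14).

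**Figure D1:**
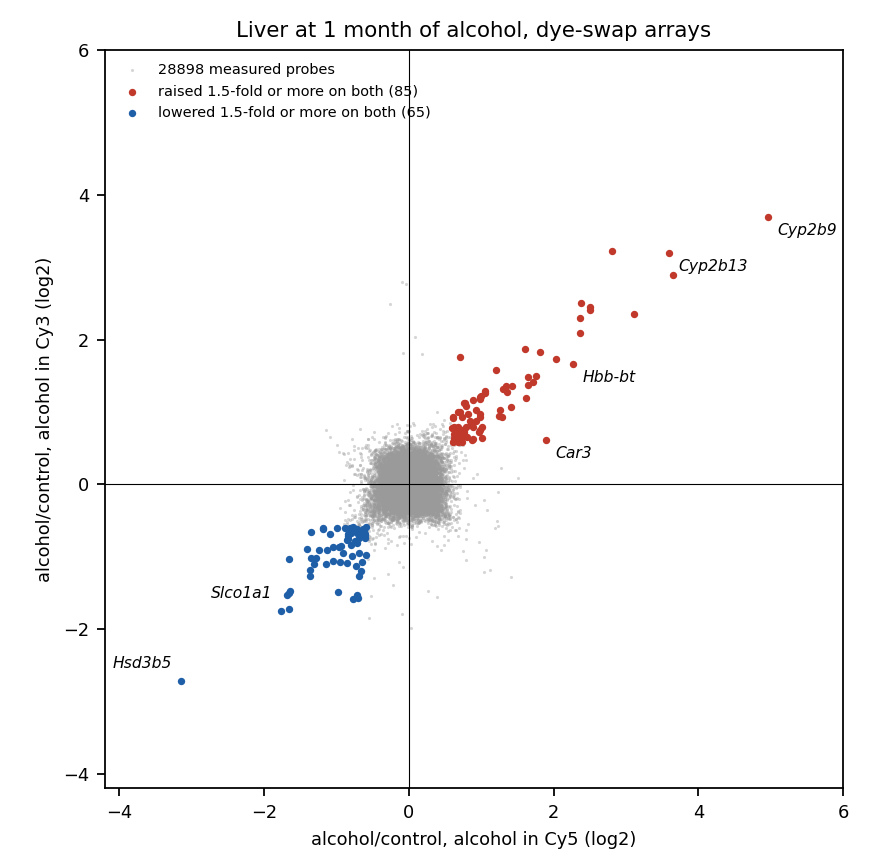
Each point is 1 of the 28898 measured probes, with the log2 ratio of alcohol over control on the array with alcohol in Cy5 (horizontal) and in Cy3 (vertical). The 85 raised and 65 lowered probes (at least 1.5-fold on both arrays, colored) lie outside the central cloud along the diagonal, where the rule places them. They run from Hsd3b5 at -3.15 and -2.72 to Cyp2b9 at 4.97 and 3.69.

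Among the enzymes of drug metabolism, Cyp2b9, a steroid and drug hydroxylase typical of female liver, rose the most, on its dimmer probe. The signal of that probe was 4198 and 3594 in the alcohol pool against 134 and 278, a low signal, in the control pool. This was a 20.1-fold difference or 4.33 on the log2 scale (SD 0.90). A second, brighter Cyp2b9 probe had 6181 and 6582 against 718 and 1283. Its 6.65-fold rise was less than that of the most changed probes of Cyp2b13 and Cyp2b10. Cyp2b13, its closest relative, gave 17545 and 20861 against 1448 and 2278, or 10.5-fold (log2 3.40, SD 0.29). Its other probe was raised 2.35-fold only. For Cyp2b10, the classical target of CAR, the signals were 1711 and 1624 against 137 and 218, or 9.67-fold (log2 3.27, SD 0.53). Alcohol and control signals did not overlap for any of these probes, which the rule that chose them nearly ensures. A second Cyp2b10 probe was well above background in the control pool on only 1 of the 2 arrays. The fourth measured gene of the list, Cyp2b19, which is known from skin, stayed at 0.05 (0.01 and 0.09).

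The P450 genes of families 1 to 3 outside Cyp2b changed in a smaller range. Of 40 measured genes, 10 rose at least 1.5-fold on both arrays and 0 fell, while 23 were above 0, 17 were below 0 and the median of the list was 0.03. The risen genes were all of the Cyp2a, Cyp2c and Cyp3a groups. Cyp3a11, the main target of PXR in the mouse, rose 1.92-fold (log2 0.94, SD 0.26), with 31864 and 42484 against 18848 and 19400. Cyp3a16, Cyp3a41a and Cyp3a44, which are typical of female liver, rose by 0.84, 0.84 and 0.84 on the log2 scale. Cyp2a5, a coumarin hydroxylase, rose by 0.83 and its neighbor in sequence Cyp2a4, a steroid hydroxylase, by 0.70 (SD 0.01). In the Cyp2c group, Cyp2c54 rose by 0.74, Cyp2c37 by 0.73, Cyp2c39 by 0.67 and Cyp2c29 by 0.63. These genes are close relatives within each group, and their probes can respond to several of them. Cyp2e1, the ethanol-oxidizing P450, had a log2 ratio of 0.07 (0.11 and 0.03). Cyp1a2, an enzyme of the aryl hydrocarbon receptor response, gave -0.23 and 0.29 on the 2 arrays.

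Genes of the same receptors outside the P450 family mostly lay above control. Of 24 measured CAR and PXR targets, 20 had an averaged log2 ratio above 0, 16 of them on both arrays. The list median was 0.26 against -0.0021 over all probes. Only Alas1 and Aldh1a1 rose at least 1.5-fold on both arrays. Alas1 makes the first intermediate of heme and limits the supply of heme for P450 enzymes. Its 2 probes rose 2.23-fold (14748 and 17411 against 7107 and 7258) and 2.04-fold (37738 and 47736 against 20359 and 21211). Of the 15 genes of heme synthesis and P450 reductase measured, Alas1 alone passed the 1.5-fold rule, and the list median was 0.04. Aldh1a1, which oxidizes retinal and other aldehydes, rose 1.86-fold (log2 0.90, SD 0.16).

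In the ethanol and acetaldehyde list, Aldh1a1 was also the 1 gene of 15 that passed. Mitochondrial Aldh1b1 gave 0.56 and 0.79, and Aldh3a2, an enzyme for fatty aldehydes, gave 0.59 and 0.50, so that each missed 1.5-fold on 1 array. Adh1, the main alcohol dehydrogenase of liver, gave 0.48 and 0.10, and Aldh2, the main acetaldehyde dehydrogenase, gave -0.06 and 0.11. The enzymes best known for ethanol oxidation thus did not pass the rule.

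Among conjugating enzymes, the 22 measured glutathione S-transferases had a median of 0.26, with 17 above 0 and 3 risen. Gsta2, an alpha-class transferase, rose 2.95-fold (1228 and 916 against 375 and 344, log2 1.56, SD 0.21), Mgst3 by 0.86 on its brighter probe (0.16 on the other) and Gstt3 by 0.66. Gstp1, the pi-class transferase that is higher in male liver, went the other way: its brighter probe gave -0.56 and -1.84 and missed the rule, whereas its other probe gave -0.99 and -1.48 and passed. Of 25 UDP-glucuronosyltransferases and sulfotransferases measured, Ugt1a9 alone rose, 3.09-fold (741 and 641 against 220 and 227, log2 1.63, SD 0.18), and the list median was -0.03. The NRF2 and glutathione synthesis list had a median of 0.02, and its count of 0 of 28 genes passing is near the share over all probes.

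The Cyp4a genes, omega-hydroxylases of fatty acids under PPAR-alpha, formed the other large increase. Cyp4a14 rose 5.43-fold, with 18350 and 19486 in the alcohol pool against 3517 and 3442 (log2 2.44, SD 0.08). Cyp4a31 rose 5.55-fold on its brighter probe (32791 and 45219 against 5815 and 8287) and 4.67-fold on the other. The 3 probes of Cyp4a10 rose 5.47-, 5.03- and 2.15-fold, and the least changed was the brightest. The probes of Cyp4a12a, a male-typical relative, disagreed: the brighter lay above control (0.57 and 0.44) and the other was lowered 2.08-fold (-1.05 and -1.06). The direction of Cyp4a12a is therefore not settled by these arrays.

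Other PPAR-alpha targets moved less. Of 38 measured, 34 were above 0, 28 of them on both arrays. At least 1.5-fold on both arrays 8 rose and 0 fell, with a list median of 0.29. Without the P450 genes, 5 of 35 rose and the median was 0.23. Cd36, a fatty acid uptake receptor, rose 2.56-fold (2329 and 2011 against 916 and 780), and its second probe 1.94-fold. Acot3, a peroxisomal thioesterase that releases fatty acids from CoA, rose 2.20-fold (489 and 511 against 205 and 252). Vnn1, a pantetheinase, rose by 0.93 on the log2 scale, Retsat, a retinol saturase, by 0.70, and Ehhadh, an enzyme of peroxisomal beta-oxidation, by 0.68. Well-known targets at control level included Cpt1a, which admits fatty acids to mitochondria (-0.05 and 0.15), Angptl4, an inhibitor of lipoprotein lipase (-0.09 and 0.11), and Plin5, a lipid droplet coat protein (-0.01 and -0.02).

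The fatty acid oxidation list shares many genes with the PPAR-alpha targets. It had 34 of 40 genes above 0, 28 of them on both arrays. The median was 0.21, with array medians of 0.23 and 0.25. Of its genes, Ehhadh and Abcd2 passed the rule. Abcd2, a peroxisomal transporter of very long chain fatty acids, rose 2.63-fold (410 and 359 against 178 and 120, log2 1.40, SD 0.27).

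Of 23 measured genes of fatty acid synthesis, 5 fell at least 1.5-fold on both arrays and 0 rose, with 17 below 0, 6 above 0 and a median of -0.16. Fasn, the fatty acid synthase, fell 2.53-fold (16016 and 15992 against 50302 and 32686, log2 -1.34, SD 0.44), and its second probe 2.42-fold. Acly, which supplies cytosolic acetyl-CoA, fell by 1.00, Pklr, the liver pyruvate kinase, by 1.16, Thrsp, a lipogenic regulator, by 0.93, and Me1, a source of NADPH, by 0.70 on its brighter probe. Srebf1, whose product activates these genes, gave -0.76 and -0.36, and Scd1, the main stearoyl-CoA desaturase, gave -0.16 and -0.83. Among the 4 probes of Acaca, acetyl-CoA carboxylase, the brightest stayed near control (-0.17 and 0.07), 2 fell by 0.70 and 0.69, and the fourth gave -0.61 and -0.56.

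Lpin1, a phosphatidate phosphatase of triglyceride synthesis and a transcriptional coregulator, fell on 3 of its 4 probes, by 1.18, 1.12 and 1.07, and the fourth gave -0.59 and -0.47. Of the 29 genes of lipid droplets and triglyceride storage measured, 1 rose (Cd36), 1 fell (Lpin1) and the median was 0.10. Plin2, the coat protein of hepatic lipid droplets, gave 0.15 and 0.09. In cholesterol synthesis 21 of 25 genes were above 0 (median 0.11), and Msmo1, a sterol methyl oxidase, alone rose on its brightest probe, by 0.87. A probe of Hmgcs1, another gene of cholesterol synthesis, also passed the rule (0.62 and 0.61).

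**Figure D2:**
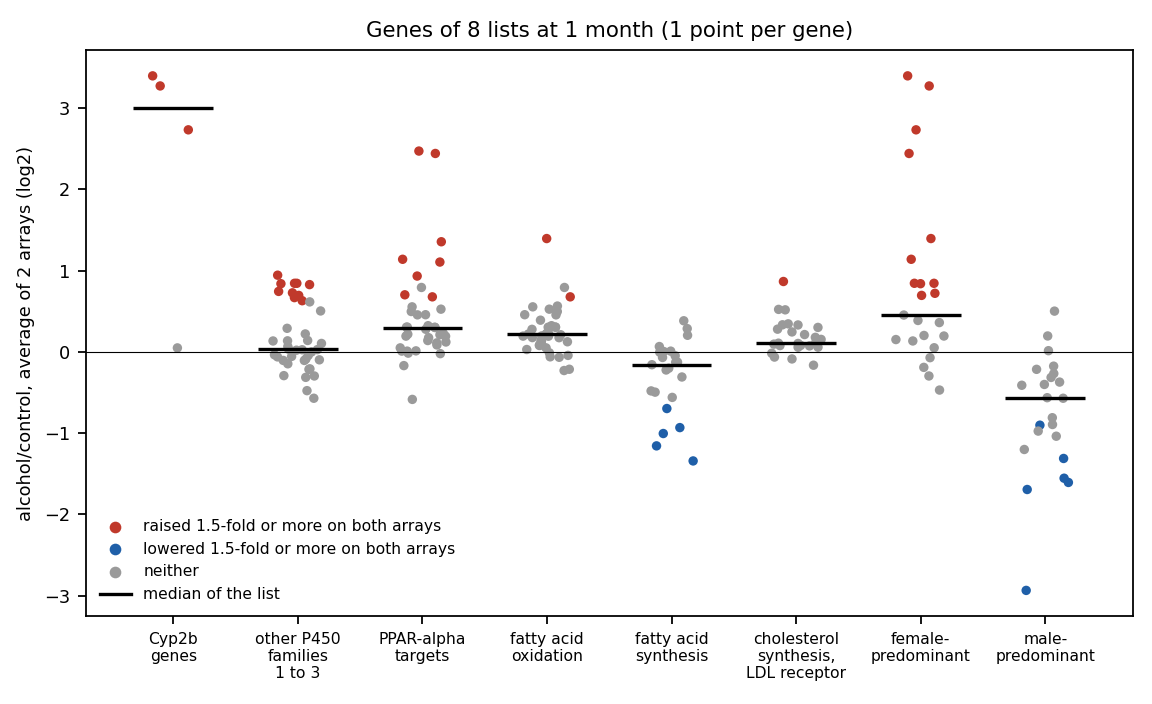
Each point is a measured gene of 8 lists, with its log2 ratio of alcohol over control at 1 month averaged over both arrays, and the black bar is the list median. The 3 risen Cyp2b genes stand above 2.5, the risen genes of PPAR-alpha targets above the mass of their list, and the 5 fallen genes of fatty acid synthesis below it; genes may belong to several lists.

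Genes with a sex difference in liver moved in both directions. Of 23 measured genes known as male-predominant, 20 were below 0, 17 of them on both arrays. At least 1.5-fold on both arrays 6 fell and 0 rose, with a median of -0.57 (array medians -0.48 and -0.83). Car3, a carbonic anhydrase also higher in male liver but not on the list, rose on its brighter probe (1.89 and 0.61). Of 23 female-predominant genes, 19 were above 0 (17 on both arrays), 11 rose and 0 fell, with a median of 0.45. The female list holds many P450 genes: without them 3 of 12 rose (Abcd2, Acot3 and Prlr) and the median was 0.20. The male list without P450 genes kept 5 fallen genes of 19 and a median of -0.81.

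Hsd3b5, a hydroxysteroid dehydrogenase found almost only in male liver, was the most lowered gene of all measured. It had 1064 and 1068 in the alcohol pool against 9436 and 7036 in the control pool, or 7.64-fold lower (log2 -2.93, SD 0.30). Hsd3b4, a member of the same family, was 2.98-fold lower (568 and 595 against 1792 and 1676). Slco1a1, an uptake transporter for organic anions and bile acids, fell 3.37-fold and 3.23-fold on its 2 probes. Selenbp2, a selenium-binding protein, fell 3.04-fold (6807 and 5653 against 21910 and 16273). Cyp7b1, the oxysterol hydroxylase of the alternative bile acid route, fell 2.94-fold (4149 and 3275 against 12933 and 9059, log2 -1.55, SD 0.12). C6, a late component of complement, fell 2.48-fold. Egfr, the receptor of epidermal growth factor, was below control on all 6 of its probes, between -0.90 and -0.58 on average, and 1 of the 6 passed the rule.

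Prlr, the prolactin receptor, rose by 0.72 (0.78 and 0.67). Bcl6, a transcriptional repressor, fell 2.31-fold (2829 and 2572 against 6998 and 5527, log2 -1.21, SD 0.14). Bcl6 and Prlr were the 2 of 22 genes of the growth hormone and IGF list that passed. The growth hormone receptor Ghr stood at 0.05, Igf1 at -0.11, Stat5b, which carries the growth hormone signal to the nucleus, at -0.07, and Socs2, an inhibitor of that signal, at 0.02. Cish, another gene that growth hormone induces, gave -0.27 and -0.33. Igfbp1, a binding protein for IGFs, had 3706 and 3056 against 4872 and 3194, a log2 ratio of -0.23 (SD 0.23), so its change did not exceed the spread of the 2 arrays.

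In bile acid synthesis and transport, Cyp7b1 and Slco1a1 were the 2 of 22 genes that fell, and 0 rose (brightest probe of each). Cyp7a1, the rate-limiting enzyme of the classical route, gave 0.78 and 0.41 on its brighter probe and 1.24 and 0.95 on the other, which passed the rule. Cyp8b1, which sets the share of cholic acid, gave 0.35 and 0.60. Abcb11, the export pump for bile acids, gave -0.64 and -0.29.

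**Figure D3:**
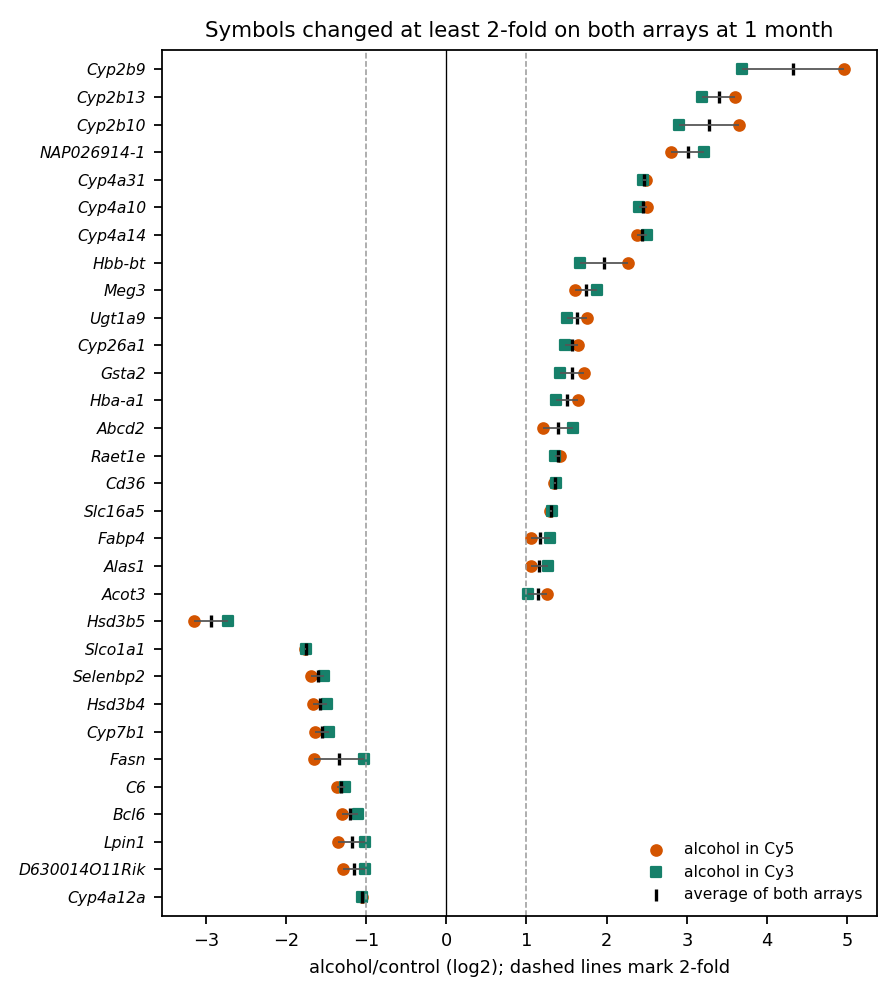
The 20 raised and 11 lowered symbols that changed at least 2-fold on both arrays are shown with the most changed probe of each, as log2 ratio of alcohol over control on the array with alcohol in Cy5 (circle), in Cy3 (square) and averaged (bar). Cyp2b9 leads with an average of 4.33 and Hsd3b5 closes with -2.93; both arrays of each gene lie beyond the dashed 2-fold lines.

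Several genes outside the lists of lipid and drug metabolism also passed 2-fold. The probe NAP026914-1, which has no gene name in the files, rose 8.06-fold (9896 and 12839 against 1419 and 1377). Cyp26a1, which degrades retinoic acid, rose 2.96-fold (1006 and 790 against 321 and 282). Meg3, an imprinted long noncoding RNA, rose 3.34- and 2.48-fold on 2 probes, whereas 2 others stayed near control (0.07 and -0.16). Raet1e, a ligand of the natural killer receptor NKG2D, rose 2.62-fold (877 and 882 against 327 and 345). Slc16a5, a monocarboxylate transporter, rose 2.47-fold. Fabp4, a fatty acid binding protein best known from adipocytes and macrophages, rose 2.25-fold and by 0.75 on 2 probes, but its brightest gave 0.19 and 0.14. Of 8 adipocyte markers measured 0 passed by the brightest probe, and their summed signal differed by 0.12 and 0.16 on the log2 scale. D630014O11Rik, an uncharacterized transcript, fell 2.22-fold at a low signal (101 and 104 against 246 and 209), with 0.04 on its second probe.

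The globins rose together. All 4 probes of beta globin (Hbb-bt, listed as Hbb-b1 on the array) rose, by 1.97, 1.89, 1.82 and 1.41, and both probes of alpha globin (Hba-a1) rose by 1.51 and 1.11. Slc4a1, the anion exchanger of red cells, gave 0.03 and 0.27, and Alas2, the first enzyme of heme synthesis in red cell precursors, gave -0.02 and 0.11, so neither passed, and the summed signal of the erythroid and blood markers was higher in the alcohol pool by 1.75 and 1.45 on the log2 scale, which the globins dominate. More red cells in the liver and more globin RNA per cell cannot be told apart in pooled tissue, and the same holds for every cell type named here.

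Among markers of other liver cells, 1 probe each of Lyve1 and Adgre1 passed the 1.5-fold rule. All 11 endothelial markers were above 0 (median 0.24), 10 of them on both arrays. Lyve1, a receptor of sinusoidal cells, rose by 0.95 (563 and 509 against 329 and 233), and its dimmer probe gave 0.39. The summed signal of the endothelial list differed by 0.20 and 0.28. Of 11 Kupffer cell and macrophage markers measured, 10 were above 0 (median 0.26), 7 of them on both arrays. On their brightest probes 0 passed, with summed differences of 0.04 and 0.24. Timd4 was not well above background. Adgre1, which encodes the macrophage marker F4/80, gave 0.41 and 0.22 on its brighter probe, and the other rose 2.35-fold (0.71 and 1.76). Stellate cell, cholangiocyte and lymphocyte markers had medians of 0.03, -0.03 and -0.0010 with 0 passing. Neutrophil markers had a median of -0.14, and S100a8 was not well above background. The part of these cell types in the other results was not tested.

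Lists of inflammation and fibrosis held 0 genes that passed, and with 0.294% of all probes raised and 0.225% lowered a list of their size would rarely hold one, so the count says nothing particular about them. These were the 27 acute phase genes (median 0.07), 16 genes of endotoxin sensing and cytokines (-0.01), 34 of interferon response and antigen presentation (0.0038) and 21 of fibrosis and extracellular matrix (0.18, with 17 above 0). The 20 circadian clock genes (-0.08), 22 immediate early genes (0.03), 22 cell cycle genes (0.04) and 74 respiratory chain subunits (0.03) also held 0. In the endoplasmic reticulum stress and ATF4 list, 18 of 26 genes were below 0 (median -0.17). The chaperone Dnajb9 fell by 0.62 on its brightest probe, Hspa5, the main chaperone of the compartment, gave -0.85 and -0.52, and Cth, an ATF4 target that makes cysteine, rose by 0.71.

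The remaining lists held 2 genes at most that passed. F11, coagulation factor XI, fell by 0.74 and with C6 made up the 2 of 37 in complement and coagulation (median -0.06). Slco1a1 was the 1 of 28 hepatic transporters (-0.08), Cth the 1 of 23 in the methionine cycle (0.16), Hamp2 the 1 of 17 in iron transport and metallothioneins (0.09), and Rhbg, an ammonium transporter that rose by 0.65, the 1 of 14 in the urea cycle and glutamine zonation (0.12). There were 0 among 20 apolipoprotein genes (-0.0032), 17 of gluconeogenesis (-0.03), 4 flavin monooxygenases (0.17), 27 hepatocyte transcription factors and receptors (0.06) and 12 housekeeping genes (-0.01).

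**Figure D4:**
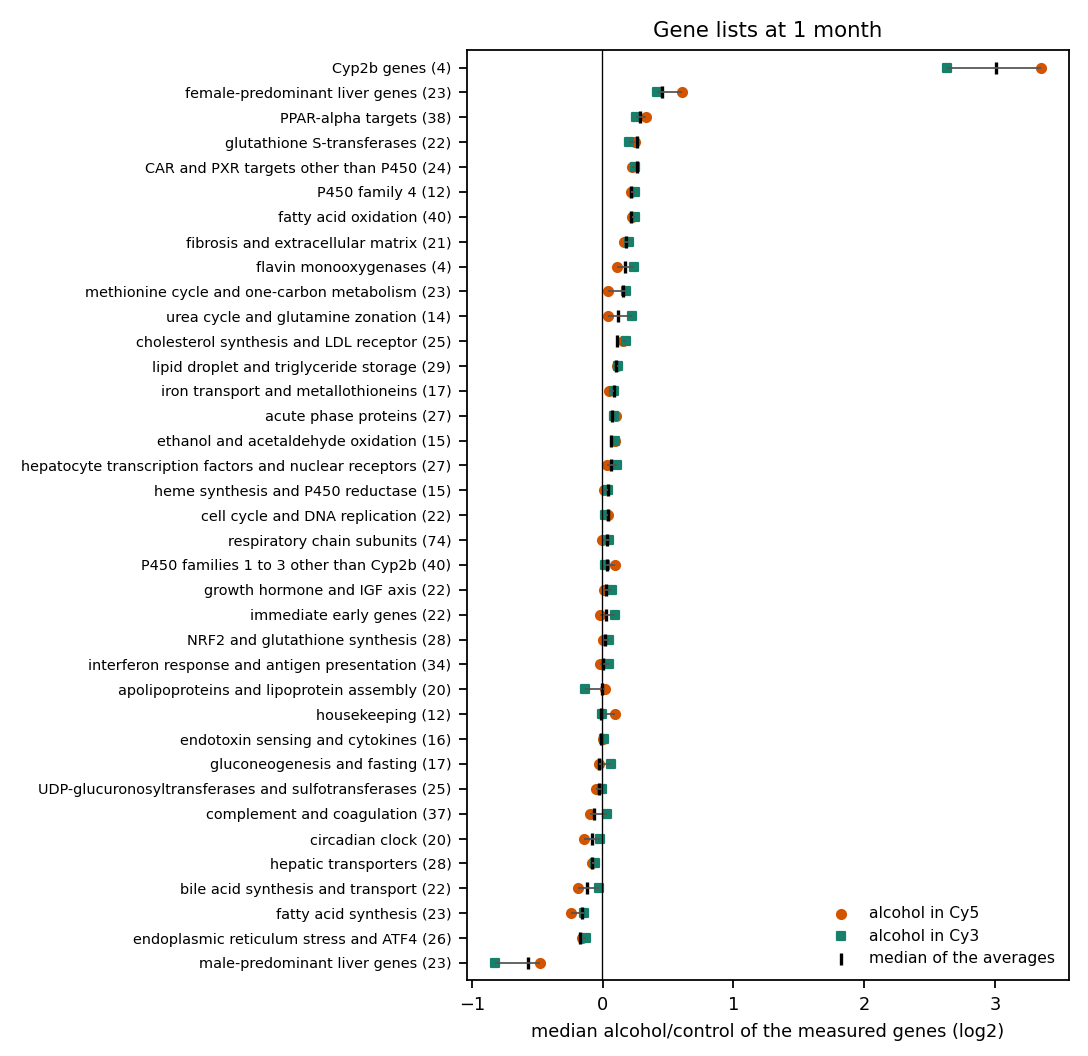
For 37 lists, with the number of measured genes in parentheses, the median log2 ratio of alcohol over control is shown on the array with alcohol in Cy5 (circle), in Cy3 (square) and for the averages (bar), and the vertical line is the median of all measured probes. The Cyp2b genes (3.35 and 2.63 on the 2 arrays), female-predominant genes (0.45) and male-predominant genes (-0.57) lie farthest from that line.

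Probes seen in a single pool added few genes. In all, 48 probes were well above background in the alcohol pool on both arrays and in the control pool on neither, and 91 showed the reverse. For such probes only a limit can be given, taken from the separate channels (loess, then Aquantile) and averaged over both dye orientations. It reached 1.5-fold for 3 and 1 of them. Serpinb1b, a protease inhibitor, was at least 1.80-fold higher with alcohol (its measured probe gave -0.31 and 0.54), Pcp4l1 at least 1.71-fold higher and the unnamed probe A_51_P281078 at least 1.60-fold higher, and Etnppl, a phospholyase, was at least 1.51-fold lower on a probe at odds with its measured probe (0.46 and 0.23).

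The genes chosen at 1 month were then followed in the mice of 2 and 4 months, which had pools of their own. Of the 28 probes raised 2-fold at 1 month, 13 had also risen 1.5-fold or more in both hybridizations of 2 months, where 0.228% of 28036 probes measured at both times had, and 14 at 4 months, against 0.462% of 28353. Their median log2 ratio was 0.82 in the 2-month pools and 0.76 in the 4-month pools, with 0 lowered. The 1-month median of 1.68 follows from how these probes were chosen and cannot be set against the later ones. Several of the 28 probes share a symbol or belong to related Cyp2b or Cyp4a genes, so they are not independent. Of the 14 lowered probes, 13 were measured later. At 2 months 4 of them were lowered (0.268% of all) and 2, both probes of Lpin1, were raised (0.228% of all). At 4 months 7 were lowered (0.427%) and 0 raised.

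After 2 and then 4 months the Cyp2b9 log2 ratio was 3.43 and 3.88 on the dimmer probe and 1.11 and 1.87 on the brighter one. Cyp2b13 gave 2.88 and 2.36, and 0.17 and 0.19 on its less changed probe. The ratio of Cyp2b10 was 2.77 and 4.03 and that of Cyp4a14 was 1.81 and 1.16. Abcd2 gave 0.89 and 1.70, and Slc16a5 0.81 and 0.99. Among the lowered genes Hsd3b5 gave -2.04 and -4.83, Cyp7b1 -1.42 and -1.64 and C6 -0.70 and -1.23. Fasn gave -0.35 and 0.15 on its brighter probe in the later mice. Bcl6 gave -0.22 and 0.03, Raet1e -0.06 and -0.19, Cd36 0.25 and 0.34 on its more changed probe, and Ugt1a9 0.17 and 0.43. Each later value stands for other mice.

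The difference between 1 month and the mean of 2 and 4 months was tested with limma on the 3 monthly log2 ratios over 27900 probes measured at all times. After Benjamini-Hochberg adjustment limma called 0 probes (0% of those tested), with a smallest adjusted p of 0.108, and 2247 had an unadjusted p under 0.05. A test without moderation called 0 and had 1696. In this fit 1 month is a single value and the residual is the difference between 2 and 4 months, which includes any change with time, so a missed threshold does not show that the months were alike. The 1-month arrays lay on a separate slide from the 2- and 4-month arrays, so slide and time cannot be told apart.

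The largest differences by size, given as a description since the test rests on so few values, were these. Hamp2, a relative of the iron hormone hepcidin, was raised at 1 month (19984 and 19661 against 10084 and 8555, log2 1.09) and was at -1.43 and -1.29 later, a difference of 2.45 (standard error 0.13, limma adjusted p = 0.108). Car3 had 60523 and 70319 against 16287 and 46036 (log2 1.25, SD 0.91) and was at -1.23 and -1.10 later, a difference of 2.41 (limma adjusted p = 0.108). Its second, dimmer probe gave 0.37 at 1 month and -0.83 and -1.38 later. Hbb-bt (difference 1.73) gave -0.15 and 0.63 in the later mice. Arrdc3, an arrestin-domain protein, stood at -0.49 against -1.31 and -2.90 later, and Dsg1c, a desmoglein, at 0.39 against -1.24 and -1.19. In the other direction, Igfbp1 stood at -0.23 against 1.97 and 2.74, a difference of -2.58 (standard error 0.32, limma adjusted p = 0.49). Lpin1 stood at -1.18 against 1.59 and 0.56, and Gadd45b, a stress-induced gene, at 0.20 against 1.51 and 2.27. Fgf21, a hormone of fasting and stress made by liver, stood at -0.17 against 1.85 and 0.78, and Tubb2a, a beta tubulin, at 0.07 against 2.21 and 0.83.

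**Figure D5:**
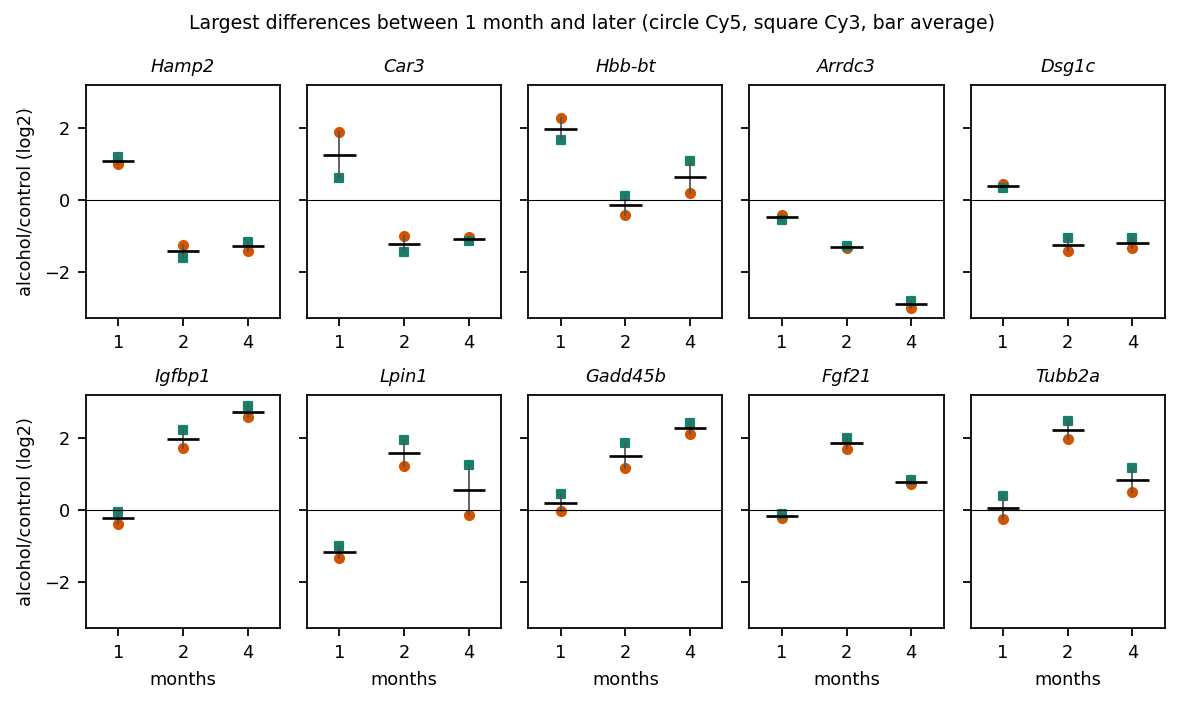
For the 10 genes with the largest difference between 1 month and later, each panel gives the log2 ratio of alcohol over control at 1, 2 and 4 months on the array with alcohol in Cy5 (circle) and Cy3 (square) and their average (bar). Both 1-month arrays lie above all 4 later arrays in the upper row and below them in the lower row; Hamp2 stands at 1.09 against -1.43 and -1.29, and Igfbp1 at -0.23 against 1.97 and 2.74.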

How the data were processed

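Each month's alcohol and control pools were hybridized in both dye orientations. The authors deposited scanner output of Feature Extraction 9.1.1.1 with the signal intensity of each channel, background-corrected and dye-normalized (used here), and a log10 ratio per spot. They also deposited a table of log10 ratios of alcohol over control, which lay within 0.016 log2 of the scanner ratios for 40929 probes with 1 spot. Ratios were computed as log2 of alcohol over control signal intensity, averaged over spots (245 probes have several) and over both arrays, as the methods describe. Resolver, pathway and self-organizing map analyses were not repeated.

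The dyes were taken from the labels. Probes were named through RefSeq (22951 by accession, 9768 by symbol or synonym, 8455 kept the array name). A list used 1 probe per symbol, the brightest measured. The 48 gene lists, 37 of pathways and 11 of markers, were written from general knowledge, and the members and lists were chosen with earlier results of these data known. Named genes are up to 15 raised and 15 lowered symbols at 2-fold on both arrays, up to 6 passing members per list with those that define a pathway, Igfbp1, Cyp2a4, Cyp2c29 and Cyp2b9, the 5 largest differences from later months in each direction, and markers. Others named were chosen after their values were seen, among them list genes that did not pass and lists without P450 genes. A few results are not reported here. Depth is not defined for arrays, and their number limits the precision.

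The difference between months used limma 3.58.1 in R 4.3.3 with 1 residual degree of freedom before moderation, and was tested on simulated data. Ratios, lists and promoters were handled in Python 3.11.15 with pandas 2.3.3, biopython 1.88 and matplotlib 3.10.9. Alternatives were the scanner ratios, the deposited table, normexp (offset 50) with loess, other filters, thresholds and probe rules, centring, single arrays and a test without moderation.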

Additional observations from a re-analysis of the deposited data

Results flagged for a closer look

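For 11 genes named in the text, both arrays of 1 month lay on one side of 0 and all 4 arrays of 2 and 4 months on the other on at least 1 probe, as did 954 of the 27900 probes measured at all times (3.42%). Each difference below is that of the averaged log2 ratio at 1 month from the mean of the later months, on the probe with the largest such difference. Above control at 1 month and below it later were Hamp2 (2.45), Car3 (2.41), Dsg1c (1.61), Cyp7a1 on its dimmer probe (1.42), Ttr (0.72), Etnppl on its measured probe (0.59), Adgre1 on its brighter probe (0.51) and Ghr on 1 of 5 probes (0.30), whose 1-month value was close to 0. Below control at 1 month and above it later were Igfbp1 (-2.58), the Lpin1 probe A_52_P483101 (-2.05) and Fgf21 (-1.48). The 1-month value of Igfbp1 did not exceed the spread of its 2 arrays. The limma adjusted p-values ran from 0.108 for Hamp2 and Car3 to 0.611 for Ghr and none passed, in a fit with a single value for 1 month that cannot show stability. The slide changed together with the time, and its part was not tested.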

How the results depend on the processing

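The 2-fold counts (28 raised, 14 lowered) became 14 and 3 at 3-fold on each array. The average of both arrays at 2-fold gave 25 lowered probes, and at 1.5-fold 114, against 65. With single arrays (without replicate 1 or 2) the 2-fold counts were 45 to 46 raised and 24 to 41 lowered, and the 1.5-fold counts 184 to 214 raised and 150 to 216 lowered. Without the filter on dim probes 136 were raised and 110 lowered at 1.5-fold, and after normexp and loess 42 were lowered. The test between months called 3 probes in arrays with alcohol in Cy3 only (Hamp2, H2al1m and Cnot10, higher at 1 month), named after their values were seen, and 0 under the other settings tried. The other 31 counts stayed within 1.5 times. No called value changed sign, which the demand for 1 direction on both arrays largely ensures. Of the alternative values, 7 for named genes (149 others did not) and 52 list medians (188 did not) moved by more than the spread of both arrays. The largest shift of a median was 0.37 (Cyp2b genes, a single array), and 0.26 among those beyond that spread (male-predominant genes). After normexp and loess the 15 raised and 11 lowered symbols with the largest 2-fold changes had 0.75 to 1.01 times their log2 ratio. The cause of these shifts was not tested. No paired analysis was possible because the groups share no pools and each month holds 1 pair. Array number and signal over background limit what can be seen.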

Other observations

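Outside the lists, Serpina3k, a secreted protease inhibitor, fell at least 1.5-fold on both arrays on 2 probes (-0.77 and -1.59, and -0.71 and -1.56), with the larger value on the array with alcohol in Cy3. Its relative Serpina3m gave -0.69 and -1.26 and also passed. Serpina6, the carrier of corticosteroids in blood, rose by 0.73, and Serpinb1a, an inhibitor of neutrophil proteases, by 0.98. Among genes of nuclear structure and RNA, the linker histones H1f2 and H1f3 rose by 0.82 and 0.74 and the long noncoding RNA Neat1 by 0.68. Idh2, the mitochondrial isocitrate dehydrogenase, rose by 0.79, and Ucp2, a mitochondrial carrier, by 0.75 and 0.66 on 2 of 3 probes (0.08 on the third). Krt23, a keratin, rose by 0.98. Srd5a1, a steroid reductase, fell by 1.01, the aldehyde oxidase Aox3 by 0.72 and the water channel Aqp8 by 0.68. These genes were chosen after their values were seen.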
